A study of Mus musculus with 6 samples.

Results

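Genes that detect double-stranded RNA, relay the alarm to interferon and carry out the interferon response were followed in fibroblasts from mouse embryos (MEFs), cells of connective tissue kept in culture. The genes were given as a list of 42 names, Rigi under both its present and its older symbol (Ddx58), and were found by gene name in the deposited table, where 41 of 22355 rows matched; the older symbol matched no row. The libraries form 2 groups of 3. Cells of the siControl group were transfected with a negative control small interfering RNA (siRNA) and cells of the siHk2 group with an siRNA against Hk2, which encodes hexokinase 2, the enzyme that phosphorylates glucose at the entry to glycolysis. Both groups thus received a short double-stranded RNA, and no untransfected group was analysed here, so the comparison asks whether sensing or interferon output differed between the siRNAs and not what transfection itself did. The sources used here give no strain, embryonic stage, siRNA sequence or time after transfection, and they do not say whether each library had a culture of its own. The p-values therefore rest on the spread among these libraries only, part or all of which may be technical.

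In the cytosol, RIG-I (encoded by Rigi) binds mainly the triphosphate ends of double-stranded RNA and MDA5 (Ifih1) long double-stranded RNA, and both helicases signal through MAVS on the mitochondrial surface. TLR3 detects double-stranded RNA in endosomes and signals through another adaptor, TRIF. These signals activate the factors IRF3 and IRF7, which switch on type I interferon genes. Secreted interferon binds the receptor made of IFNAR1 and IFNAR2 and drives STAT2 with IRF9, and a partner STAT, to the promoters of interferon-stimulated genes, among them the Ifit, Oas and Mx families. An siRNA can be a ligand of these sensors, which makes the genes a common check in knockdown experiments.

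Levels are in TPM, a length-corrected share of each library, so levels may be compared between genes but the sequencing depth is unknown. Of the 41 members, 29 averaged 1 TPM or more across the 6 libraries and were tested, and 12 averaged less. Single values are given in the order siControl 4, 5 and 6, then siHk2 1, 2 and 3, the numbers the columns carry. Hk2, the target, read 57.1, 62.5 and 58.9 TPM in siControl against 22.4, 21.4 and 21.8 TPM in siHk2 (adjusted p = 0.000222, from limma after Benjamini-Hochberg adjustment over all genes tested, as for every adjusted p given here). The fibroblast markers Col1a2 (mean 563 TPM), Col3a1 (197 TPM) and Vim (2167 TPM) were abundant, while Dcn, Lum and Thy1 stayed at or under 0.54 TPM. All 6 endothelial markers stayed under 0.5 TPM in every library. Of 12 leukocyte markers found, 4 reached a mean of 1 TPM, namely Cd68 (40.5 TPM), Cd14 (14.5 TPM), Lyz2 (4.27 TPM) and Tyrobp (2.21 TPM), and none of them passed the test between the groups. Among the others, Ptprc, Cd3e, Itgam and Adgre1 stayed under 0.5 TPM in every library.

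One member, Ifit3, rose in siHk2, and 28 of the 29 tested members did not pass. Of the 13341 genes tested in all, 13.6% passed, 6.15% higher and 7.42% lower, so 1 higher and 0 lower member in limma is not above that background. At an unadjusted p under 0.05 in limma there were 5 members, Ifit3, Oas1a, Oas3, Ifi27 and Mavs, against 30.7% of all genes tested. The median log2 fold change of the tested members was 0.07, against 0.01 for all genes tested. Above 0 were 18 members (62.1%) and below it 11, against 51.2% of all genes tested above 0. The median absolute change was 0.13 for the members and 0.14 for all genes. For 27 of the 29 the 95% confidence interval lay within 1 log2 unit of 0, and for 15 (51.7%) within 0.5 unit, against 93.1% and 66.9% of all genes tested; the exceptions to the wider bound were Ifit3 and Oas3.

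**Figure D1:**
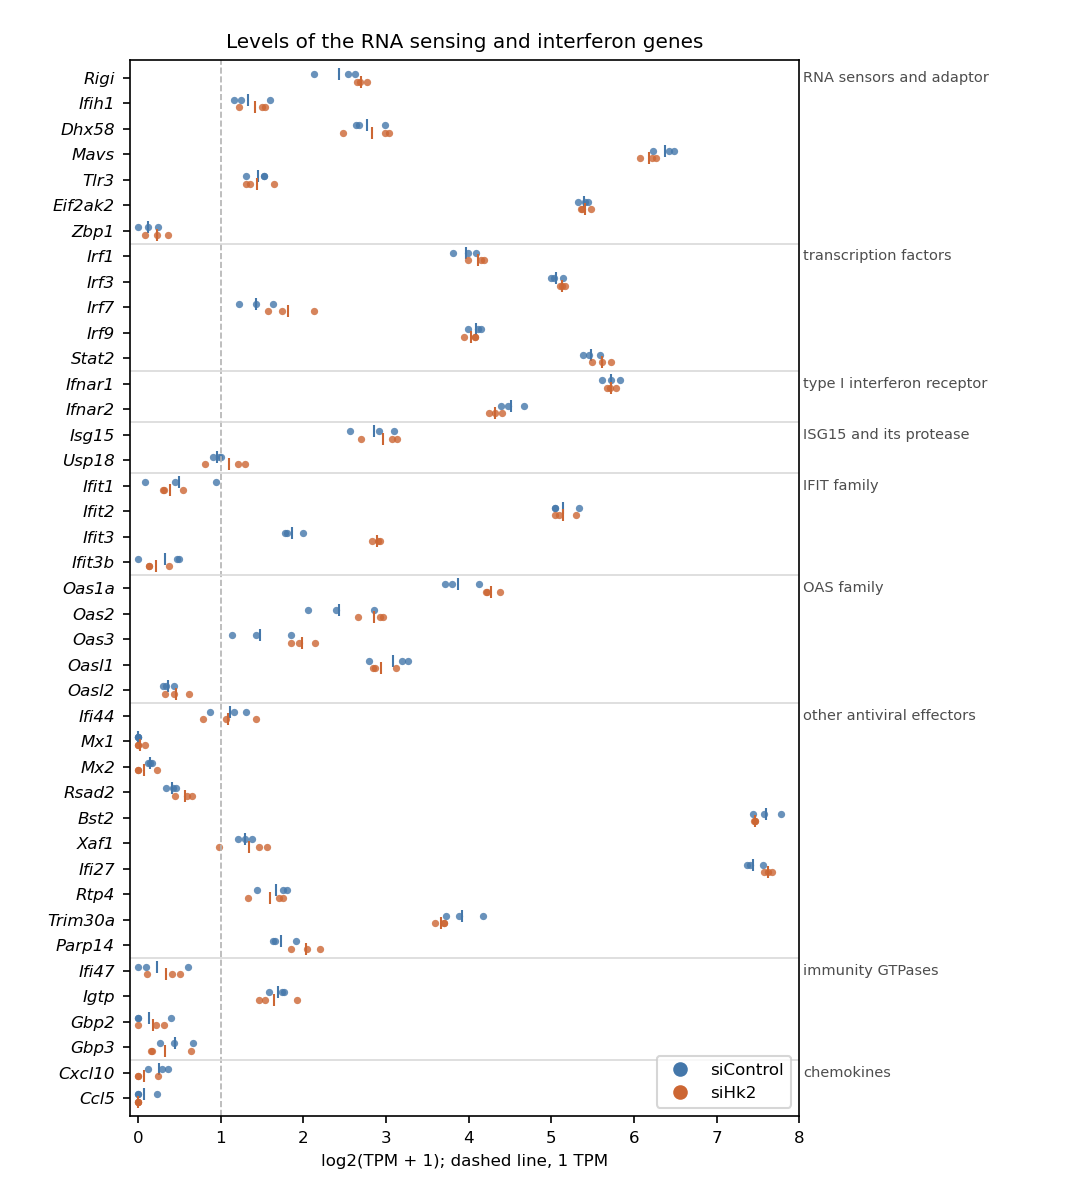
Level of each of the 41 members in each library, on the log2(TPM + 1) scale, grouped by role; points are libraries, vertical ticks the mean of the group on that scale, and the dashed line marks 1 TPM. The points of the groups overlap for most genes, those of Ifit3 lie apart, and Mx1, Mx2, Ccl5, Cxcl10 and Gbp2 sit near 0 in both groups.

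Many interferon-stimulated genes carry the interferon-stimulated response element, for which the core GAAA followed by any 2 bases and again GAAA was searched on both strands (TTTC, 2 bases and TTTC on the other one) of the promoter windows of RefSeq, each 300 bases long and ending shortly after a gene's start, on the older build GRCm38.p6. A window was found for 31 members, and 17 of them (54.8%) held the core, against 3.99% of 27025 gene symbols with a window. The list was assembled from genes known for this response, so the share describes the list. The shorter core TTCNNNGAA, bound by STAT dimers, was in the windows of 8 of the 31 members, against 9.55% of symbols. The sequences of Ifit3, the member that rose, and of the 4 most abundant members with the core are shown so that the element of the gene that rose can be set beside that of genes that did not pass; capitals mark every match to the first core on either strand, and adjacent matches run together.
Ifit3 promoter, chr19:34583279-34583578, plus strand: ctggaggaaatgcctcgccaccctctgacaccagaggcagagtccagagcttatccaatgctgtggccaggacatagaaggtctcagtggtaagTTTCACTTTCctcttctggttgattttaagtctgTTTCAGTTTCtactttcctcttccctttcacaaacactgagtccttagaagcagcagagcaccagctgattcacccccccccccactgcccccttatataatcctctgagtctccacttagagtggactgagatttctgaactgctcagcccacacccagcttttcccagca
Bst2 promoter, chr8:71537423-71537722, minus strand: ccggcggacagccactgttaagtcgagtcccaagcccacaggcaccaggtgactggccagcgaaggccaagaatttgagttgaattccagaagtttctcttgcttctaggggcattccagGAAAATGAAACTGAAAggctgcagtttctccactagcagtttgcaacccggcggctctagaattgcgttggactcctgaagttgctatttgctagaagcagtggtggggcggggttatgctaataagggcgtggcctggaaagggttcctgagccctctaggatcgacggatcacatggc
Stat2 promoter, chr10:128270248-128270547, plus strand: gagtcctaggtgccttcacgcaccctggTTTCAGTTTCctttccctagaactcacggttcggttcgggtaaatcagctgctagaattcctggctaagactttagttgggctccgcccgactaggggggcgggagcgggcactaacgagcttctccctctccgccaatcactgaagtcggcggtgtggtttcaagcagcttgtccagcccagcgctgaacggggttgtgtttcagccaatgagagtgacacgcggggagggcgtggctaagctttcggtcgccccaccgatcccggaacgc
Eif2ak2 promoter, chr17:78882523-78882822, minus strand: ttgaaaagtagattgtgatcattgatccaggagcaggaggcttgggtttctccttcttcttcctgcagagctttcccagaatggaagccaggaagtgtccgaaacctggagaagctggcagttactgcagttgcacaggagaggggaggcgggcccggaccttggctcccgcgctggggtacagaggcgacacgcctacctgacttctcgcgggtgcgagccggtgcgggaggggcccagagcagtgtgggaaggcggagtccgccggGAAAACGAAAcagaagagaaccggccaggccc
Oas1a promoter, chr5:120907476-120907775, minus strand: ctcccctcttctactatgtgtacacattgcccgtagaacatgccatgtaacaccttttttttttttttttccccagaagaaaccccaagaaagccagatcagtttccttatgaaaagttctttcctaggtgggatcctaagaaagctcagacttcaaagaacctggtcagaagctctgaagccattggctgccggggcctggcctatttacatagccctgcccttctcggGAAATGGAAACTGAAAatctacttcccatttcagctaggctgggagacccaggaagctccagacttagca
Ifit3 carried matches beginning 156 and 122 bases before its start. Bst2 carried 2 overlapping matches beginning 130 and 124 bases before its start, and Oas1a 2 overlapping matches beginning 20 and 14 bases before. Stat2 had 1 match 222 bases before its start and Eif2ak2 1 match 18 bases after it. Of the 11 tested members with the core, 1 rose (Ifit3) and the median log2 fold change was 0.11, with a range of -0.26 to 1.03. Of the 12 tested members with a window and no match, 0 rose in limma, with a median of -0.01 and a range of -0.19 to 0.39. Over all genes tested 6.15% rose, and counts this small cannot be told apart from that share. The members with and without the core were not tested against each other. A match describes letters in the window and is not evidence that a factor binds there.

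Ifit3 belongs to the Ifit family of interferon-stimulated genes. It read 3.01, 2.50 and 2.43 TPM in siControl against 6.59, 6.15 and 6.50 TPM in siHk2, so the lowest siHk2 library lay above every siControl library. Its mean was 2.65 ± 0.317 TPM with the control siRNA and 6.41 ± 0.232 TPM with the Hk2 siRNA (SD, n = 3), 2.42 times higher. On the log2(TPM + 1) scale the rise was 1.03 with an SE of 0.12, and its 95% confidence interval ran from 0.75 to 1.30. The adjusted p was 0.00351 in limma. The siControl mean alone was above the filter, so the call does not rest on the filter. Leaving out 1 library at a time kept the adjusted p between 0.00659 and 0.0263. Ifit3 (ENSMUSG00000074896) occupies bases 34560931 to 34566131 of chromosome 19, plus strand, by the coordinates deposited with the values (GRCm39, per the submitters' processing notes).

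Some epithelial and fibroblast markers also differed between the groups. The summed level of 6 epithelial markers was 1.98 to 2.43 TPM in the controls and 6.02 to 8.68 TPM in siHk2, most of it Krt7, the only one tested, which passed (adjusted p = 0.00708 in limma). Krt8, below the filter, was at 0.17, 0.33 and 0 TPM in siControl against 1.28, 1.97 and 0.93 TPM in siHk2. Krt18, also below it, ran between 0.13 and 0.56 TPM with overlapping groups. Epcam and Cdh1 stayed at or under 0.09 TPM and Cldn4 at or under 0.11 TPM. Of 10 fibroblast markers, Vim fell from a mean of 2365 to 1969.5 TPM (adjusted p = 0.0110 in limma) and Fbn1 rose from 41.8 to 59.7 TPM (adjusted p = 0.00229). The fibroblast markers summed to 3374 to 3480.5 TPM in the controls and 3105 to 3266 TPM in siHk2, most of it Vim. Col1a1 (means of 105 and 160 TPM), Col1a2 (533 and 593 TPM), Col3a1 (183 and 210 TPM) and Pdgfrb (153 and 175 TPM) had higher siHk2 means. Pdgfra (30.3 and 29.0 TPM) had a lower one, and none of these passed. The part of these markers in the difference of Ifit3 was not tested. In bulk RNA, fewer cells of a type and less RNA per cell cannot be told apart.

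Of the 7 neighbouring genes of Ifit3, Ifit2 and Lipa were tested and neither passed, and the other 5 were below the filter. The Ifit genes lie side by side, and within 200000 bases either side of Ifit3 the table lists Ifit2, Ifit3b, Ifit1, Ifit1bl1, Ifit1bl2, Lipa and Slc16a12. Ifit2, the most abundant Ifit gene here, read 32.2, 31.9 and 39.6 TPM in siControl against 38.4, 32.1 and 33.1 TPM in siHk2, with overlapping groups, a log2 fold change of 0.00 (95% confidence interval -0.24 to 0.24) and adjusted p = 0.985 in limma. Ifit1, which binds the cap of viral RNA, was below the filter, at 0.93, 0.06 and 0.36 TPM in siControl against 0.24, 0.46 and 0.23 TPM in siHk2. Lipa, the gene next to Ifit2, read 61.2, 55.2 and 65.7 TPM in siControl against 67.6, 69.8 and 72.02 TPM in siHk2, with no overlap (log2 fold change 0.20, adjusted p = 0.0957 in limma). The remaining neighbours were near 0: Ifit3b stayed between 0 and 0.41 TPM, and Ifit1bl1, Ifit1bl2 and Slc16a12 between 0 and 0.34 TPM.

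Ifit3b is a near copy of Ifit3: of the 50-base windows of the longest Ifit3 transcript in GENCODE M21, 51.2% are found in transcripts of other genes too, Ifit3b sharing the most. Reads of this pair could be split or lost in counting, so single levels are uncertain. Added together, the pair stood at 3.42, 2.50 and 2.82 TPM in siControl against 6.69, 6.45 and 6.60 TPM in siHk2, 2.26 times higher on the mean and with no overlap. No other row of the table overlaps Ifit3.

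**Figure D2:**
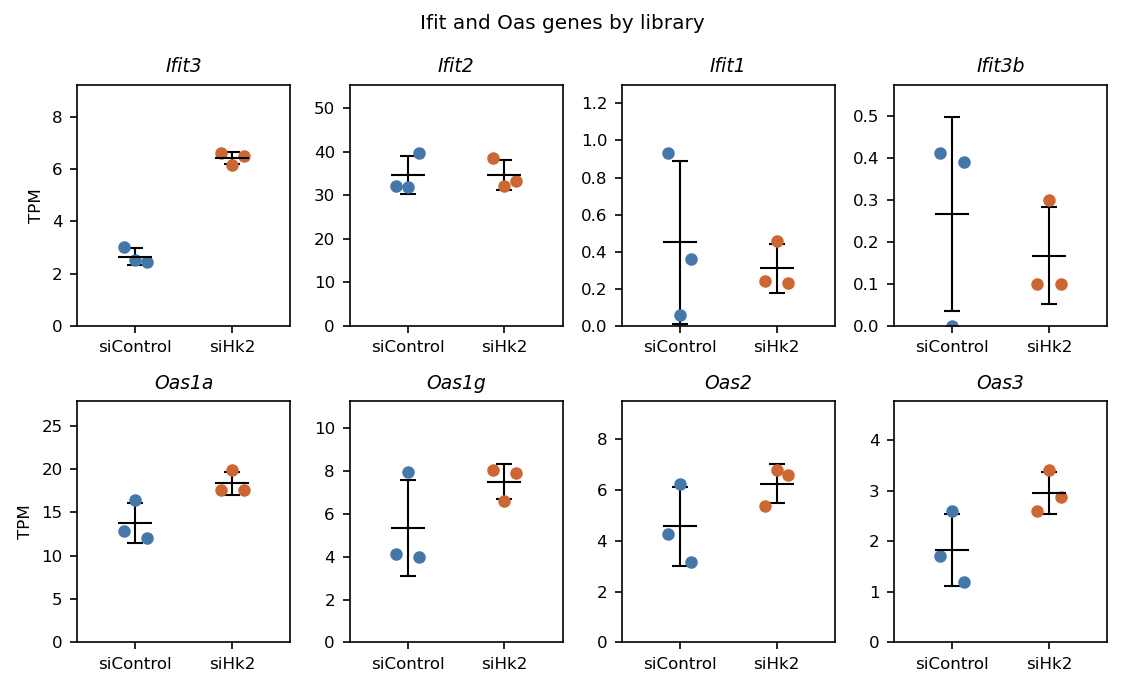
TPM of 4 Ifit genes and 4 Oas genes in each library; coloured points are libraries, horizontal bars the group mean and whiskers 1 SD (n = 3), on linear axes from 0. Ifit3 is apart at 2.43 to 3.01 TPM against 6.15 to 6.59 TPM, while Ifit2 overlaps and the 4 Oas genes have higher siHk2 means with siControl library 5 close to the siHk2 values.

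Oas1a, Oas2 and Oas3 encode enzymes that make 2-5A, a messenger that activates RNase L, when they bind double-stranded RNA. They lie together on chromosome 5, within bases 120868398 to 121045584, and Oasl1 lies apart at 115061299 to 115075974. None of the 4 tested members of the family, Oasl1 among them, passed in limma over all genes. Oas1a read 12.9, 16.4 and 12.1 TPM in siControl against 17.6, 19.9 and 17.5 TPM in siHk2. Its groups did not overlap, and it came nearest to the threshold after Ifit3, with a log2 fold change of 0.39 (95% confidence interval 0.12 to 0.67, adjusted p = 0.0669 in limma). Without siControl library 5, its highest control, Oas1a passed (log2 fold change 0.52, adjusted p = 0.0174). With any other single library left out it did not pass (adjusted p = 0.125 to 0.191 in limma).

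Oas2 read 4.28, 6.24 and 3.16 TPM in siControl against 5.35, 6.78 and 6.60 TPM in siHk2, with a log2 fold change of 0.41 (adjusted p = 0.224 in limma). Oas3 read 1.70, 2.60 and 1.20 TPM in siControl against 2.60, 3.41 and 2.87 TPM in siHk2 (log2 fold change 0.51, 95% confidence interval 0.01 to 1.00, adjusted p = 0.153 in limma). In both genes siControl library 5 reached into the siHk2 values and the other control libraries lay below them. Oas1g, a neighbour outside the list of members, showed the same arrangement, at 4.14, 7.93 and 3.96 TPM against 8.04, 6.58 and 7.88 TPM. The other tested Oas1 neighbours did not. Oas1b read 4.21, 5.59 and 2.71 TPM against 3.46, 5.59 and 6.82 TPM (adjusted p = 0.526 in limma). Oas1c read 2.46, 3.16 and 3.29 TPM against 3.30, 2.95 and 3.12 TPM (adjusted p = 0.812 in limma). Oas1g also shares sequence with Oas1a, of whose 50-base windows 57.6% are found in another gene, Oas1g sharing the most. The sum of Oas1a and Oas1g was 17.04, 24.4 and 16.04 TPM in siControl against 25.7, 26.5 and 25.4 TPM in siHk2.

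Oasl1 and Oasl2 encode OAS-like proteins. Oasl1 read 8.19, 8.60 and 5.92 TPM in siControl against 7.69, 6.21 and 6.30 TPM in siHk2, with overlapping groups (log2 fold change -0.14, adjusted p = 0.582 in limma). Oasl2 stayed between 0.23 and 0.54 TPM and was not tested.

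None of the 5 tested sensors outside the Oas family passed. Rigi read 4.82, 5.20 and 3.37 TPM in siControl against 5.45, 5.83 and 5.29 TPM in siHk2; its groups did not overlap, by a margin of less than 0.1 TPM, and the log2 fold change was 0.27 (95% confidence interval -0.08 to 0.63, adjusted p = 0.275 in limma). Ifih1 stayed between 1.23 and 2.04 TPM and Tlr3 between 1.48 and 2.14 TPM, with overlapping groups. Dhx58, whose product LGP2 tunes the other helicases, read 5.22, 6.96 and 5.37 TPM in siControl against 7.22, 6.93 and 4.58 TPM in siHk2. An antisense row, Dhx58os, overlaps it at 10.2 and 13.9 TPM on the mean, and the sources used here do not say whether counting used the strand.

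Eif2ak2 encodes PKR, a kinase that halts translation when it binds double-stranded RNA. It was the most abundant RNA-binding sensor and also the steadiest, at 42.5, 41.6 and 39.1 TPM in siControl against 40.01, 43.8 and 40.4 TPM in siHk2. Its log2 fold change was 0.01, with a 95% confidence interval of -0.13 to 0.15. Zbp1, a sensor of Z-form nucleic acid, stayed at or under 0.29 TPM.

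Mavs, the adaptor, had lower values in most siHk2 libraries but did not pass. It read 84.7, 88.3 and 74.4 TPM in siControl against 66.2, 76.3 and 73.7 TPM in siHk2, with overlap between siControl library 6 and siHk2 library 2. The log2 fold change was -0.19 (95% confidence interval -0.38 to -0.00299, adjusted p = 0.157 in limma). Without siControl library 6, the lowest control, Mavs passed as lower (log2 fold change -0.26, adjusted p = 0.0496). With any other single library left out it did not pass (adjusted p = 0.179 to 0.362 in limma).

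The factors that carry the signal into the nucleus were present throughout and none of the 5 passed. Irf3, which is activated without new synthesis, read 31.7, 31.1 and 34.4 TPM in siControl against 34.9, 34.2 and 33.5 TPM in siHk2 (log2 fold change 0.08, 95% confidence interval -0.06 to 0.21). Irf7, which is itself induced by interferon, was low, at 1.70, 2.10 and 1.33 TPM in siControl against 1.99, 3.38 and 2.36 TPM in siHk2. Its groups overlapped, and its interval reached from -0.08 to 0.87 around a log2 fold change of 0.39 (adjusted p = 0.242 in limma). Irf1, an early factor induced mainly by interferon gamma, read 13.1, 14.9 and 16.02 TPM in siControl against 14.9, 16.8 and 17.3 TPM in siHk2.

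Stat2 and Irf9 form the DNA-binding complex of the type I response with a further STAT. Stat2 read 42.9, 47.2 and 40.8 TPM in siControl against 43.97, 51.6 and 48.1 TPM in siHk2 (log2 fold change 0.13, adjusted p = 0.310 in limma). Irf9 read 16.4, 16.8 and 14.9 TPM in siControl against 15.9, 15.9 and 14.3 TPM in siHk2. In both, the groups overlapped. Annotated genes overlap Irf9 (Rnf31), Irf3 (Bcl2l12), Irf7 (Phrf1), Usp18, Oasl1 and Igtp as well, so reads at their shared parts may not have been separated.

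Neither receptor chain passed. Ifnar1 read 52.04, 56.02 and 48.2 TPM in siControl against 49.95, 54.1 and 51.4 TPM in siHk2, with a log2 fold change of -0.01 and a 95% confidence interval of -0.16 to 0.15. Ifnar2 read 21.3, 24.4 and 19.99 TPM in siControl against 17.95, 20.3 and 18.9 TPM in siHk2, 0.87 times the control on the mean (log2 fold change -0.19, adjusted p = 0.201 in limma), with siHk2 library 2 inside the control range.

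Isg15, a ubiquitin-like modifier that rises early in most interferon responses, read 6.54, 7.58 and 4.94 TPM in siControl against 7.43, 7.78 and 5.48 TPM in siHk2. Its groups overlapped and its log2 fold change was 0.11 (95% confidence interval -0.30 to 0.51, adjusted p = 0.727 in limma). Usp18, the protease that removes ISG15 and dampens receptor signalling, was at 1.00, 0.87 and 0.97 TPM in siControl against 0.75, 1.45 and 1.31 TPM in siHk2 (adjusted p = 0.693 in limma).

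Among the other effectors, Bst2 and Ifi27 had by far the highest levels. Bst2, which encodes tetherin, a protein that holds budding virus at the cell surface, read 172, 189 and 218 TPM in siControl against 174, 176 and 176 TPM in siHk2. The siHk2 libraries were closely matched and lay near the lowest control (log2 fold change -0.13, adjusted p = 0.315 in limma). Ifi27 read 164, 168 and 188 TPM in siControl against 203, 189 and 196 TPM in siHk2. Its groups did not overlap, the log2 fold change was 0.18 (95% confidence interval 0.04 to 0.32) and adjusted p = 0.0883 in limma. Without siControl library 6, its highest control, Ifi27 passed (log2 fold change 0.24, adjusted p = 0.0172). With any other single library left out it did not pass (adjusted p = 0.142 to 0.246 in limma).

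Trim30a, a TRIM protein gene of rodents, was the tested member with the lowest log2 fold change. It read 13.8, 17.0 and 12.2 TPM in siControl against 11.99, 12.07 and 11.1 TPM in siHk2, with no overlap but a siControl 6 value close to the siHk2 libraries (log2 fold change -0.26, 95% confidence interval -0.54 to 0.02, adjusted p = 0.191 in limma). Parp14, an ADP-ribosyltransferase, read 2.15, 2.78 and 2.11 TPM in siControl against 3.14, 3.59 and 2.61 TPM in siHk2 (adjusted p = 0.259 in limma). Ifi44, Xaf1 and Rtp4 ran between 0.72 and 2.50 TPM with overlapping groups and adjusted p-values of 0.963, 0.917 and 0.832 in limma. Rtp4 overlaps Masp1 and the row Gm45338, and 13.6% of its 50-base windows occur in another gene.

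Several classical interferon-induced genes were close to absent in both groups. Mx1, a GTPase that blocks influenza virus, was listed at 0 in every library but siHk2 library 2 (0.06 TPM), and Mx2 stayed at or under 0.17 TPM. Rsad2, which encodes viperin, ran from 0.27 to 0.58 TPM. Of the immunity GTPases, which act against intracellular pathogens, Igtp alone was tested, at 2.36, 2.40 and 2.00 TPM in siControl against 1.76, 1.90 and 2.81 TPM in siHk2 (adjusted p = 0.865 in limma). Gbp2, Gbp3 and Ifi47 stayed at or under 0.59 TPM. The chemokine Cxcl10 was at 0.29, 0.22 and 0.09 TPM in siControl against listed at 0 in 2 of the 3 siHk2 libraries, with 0.18 TPM in siHk2 library 3. Ccl5 was listed at 0 in 5 libraries and at 0.17 TPM in siControl library 5. The deposited values do not say how many reads lie behind such low values.

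**Figure D3:**
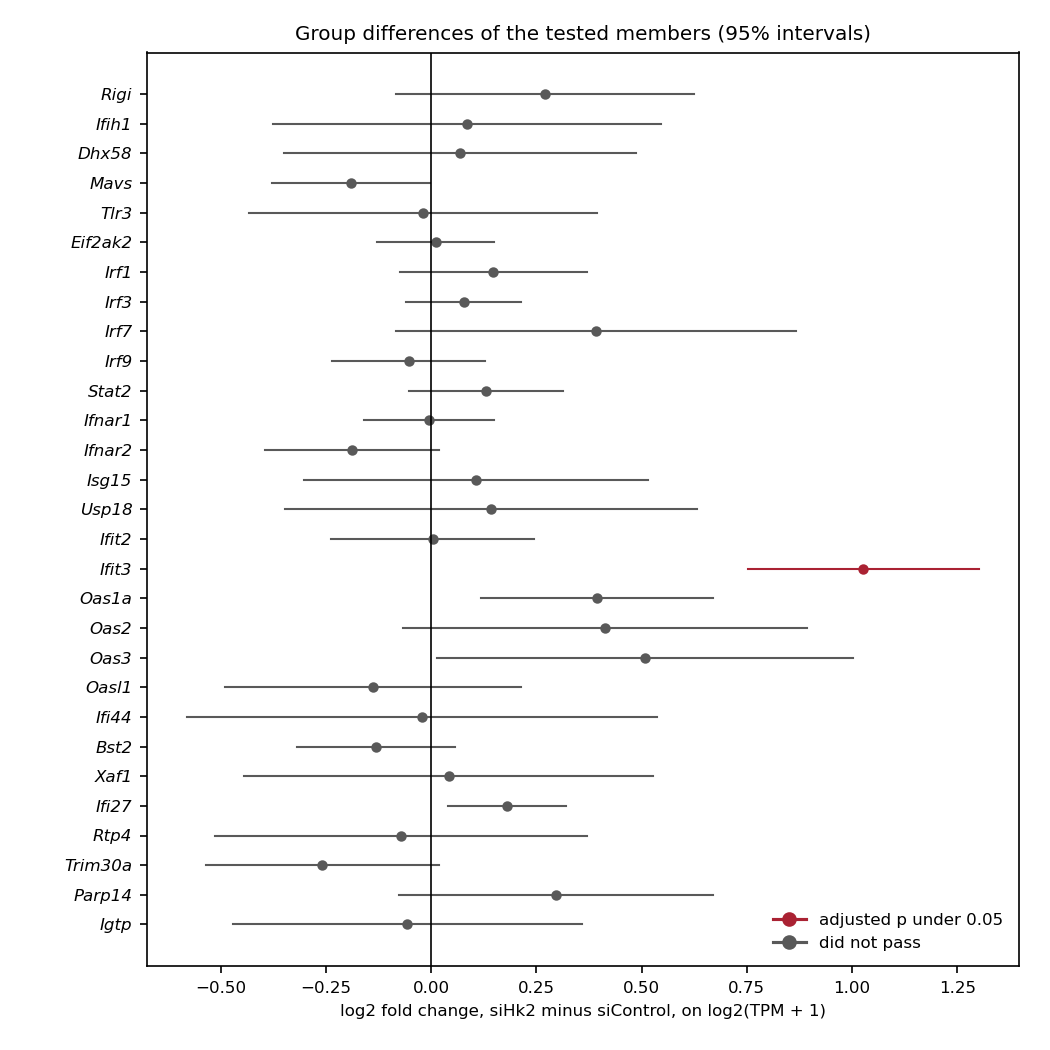
Log2 fold change of the 29 tested members, siHk2 minus siControl, on the log2(TPM + 1) scale; points are estimates and lines 95% confidence intervals from limma, red where the adjusted p was under 0.05. Ifit3 stands at 1.03 and passes, while the other 28 lie between -0.26 and 0.51 and do not.

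In all, the groups did not overlap for 5 of the 29 tested members (Ifit3, Oas1a, Ifi27 and Rigi higher, Trim30a lower), or 17.2%, against 35.7% of all genes tested. Within each group the members differed between libraries in a shared way. Among the controls, library 5 had the highest value for 19 of the 29 members and library 6 the lowest for 20, against 39.3% and 39.9% of all genes tested. In siHk2, library 2 had the highest value for 18 of the 29, against 38.2% of all genes, and library 1 the lowest for 15, against 39.8%.

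Oas2 showed this most plainly, with siControl library 5 nearly matching the siHk2 libraries and siControl library 6 at 3.16 TPM. The median deviation of the members from their group mean was 0.11 in siControl library 5, -0.10 in siControl library 6 and 0.09 in siHk2 library 2 on the log2(TPM + 1) scale, while the medians over all genes lay between -0.01 and 0.01. Irf1, Irf3, Ifit2, Bst2 and Ifi27 ran the other way among the controls, with siControl library 6 highest. The summed leukocyte markers, most of it Cd68, were also highest in siControl library 5, at 84.1 TPM. The sum was 59.1 and 56.2 TPM in the other controls and 56.1 to 65.1 TPM in siHk2. Cd68 read 56.3 TPM in siControl library 5 against 40.1 and 35.6 TPM in siControl libraries 4 and 6. Lyz2 and Tyrobp were also highest in siControl library 5. Cd14 was not, at 13.4 TPM there against 15.6 TPM in siControl library 6. The part of the leukocyte markers in the members' values was not tested. Ifit3 did not follow siControl library 5, where it read 2.50 TPM.

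**Figure D4:**
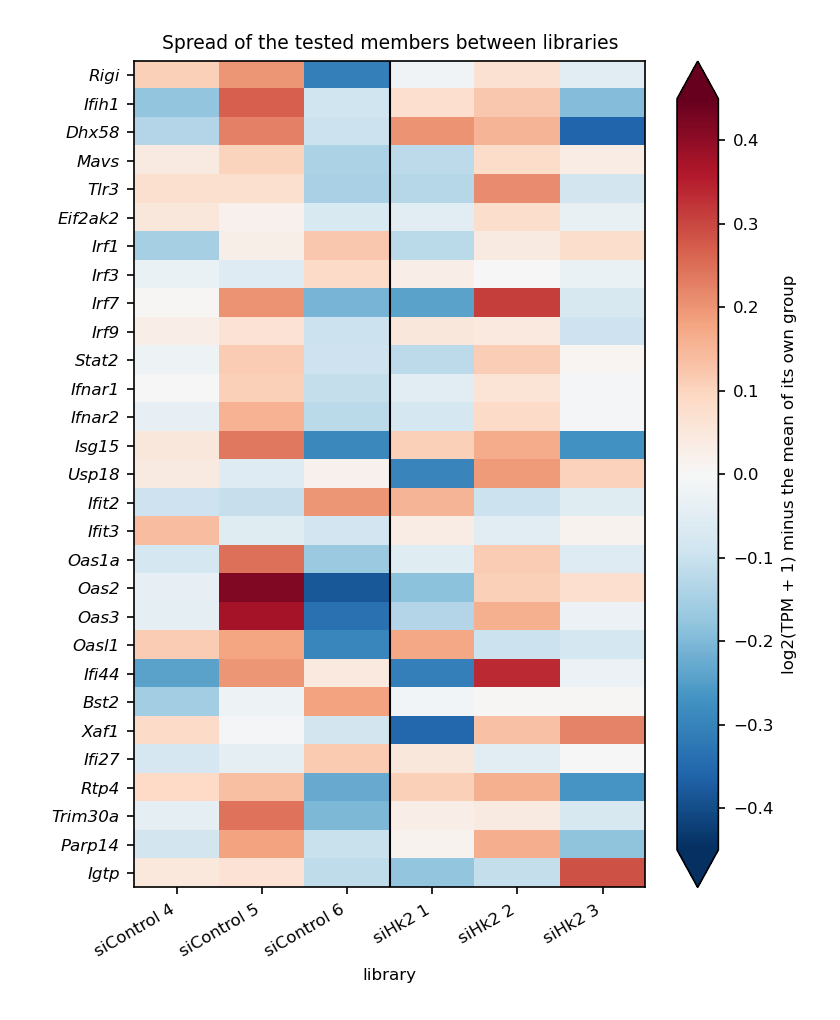
Deviation of each tested member from the mean of its own group in each library, on the log2(TPM + 1) scale; red is above and blue below the group mean, and the vertical line separates the groups. Many rows are red in siControl library 5 and blue in siControl library 6, most strongly Oas2 and Oas3, and the siHk2 libraries show a weaker contrast between libraries 2 and 1.

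Other genes of the pathway were taken from 4 lists. Of the 21 interferon genes sought by name, 4 had a row in the table (Ifna2, Ifna13, Ifne and Ifnz) and none reached a mean of 1 TPM. Ifnb1, which encodes interferon beta, had no row, so no value can be given for it. Whether genes at 0 in every library were left out before deposit was not tested. A missing row alone thus does not show whether Ifnb1 or another interferon gene was undetected. Ifna13 was at 0.80, 0.59 and 0.94 TPM in siControl against 1.28, 0.74 and 0 TPM in siHk2, and Ifna2, listed at 0 in the controls, reached 0.59 TPM in siHk2 library 3 and 0.20 TPM in siHk2 library 1. Interferon alpha genes are near copies of each other, so single levels are uncertain.

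None of the 19 tested genes that link sensors to interferon passed in limma, with a median log2 fold change of 0.07. Of these, 4 (21.1%) had an unadjusted p under 0.05, below the 30.7% of all genes. The 3 most abundant were Tbk1, the kinase of IRF3 (95.4 ± 6.79 and 108 ± 5.09 TPM, SD, n = 3, adjusted p = 0.106 in limma), Trim25, a ubiquitin ligase (84.6 and 76.6 TPM, adjusted p = 0.0947), and the adaptor Tradd (58.1 and 63.03 TPM, adjusted p = 0.295). Every siHk2 library was above the controls for Tbk1 and below them for Trim25, though neither passed.

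Of 12 tested genes of interferon receptor signalling, 1 (8.33%) rose and 0 fell, near the 6.15% and not above the 7.42% of all genes that passed in limma (median log2 fold change 0.06). That gene was Ifngr2, a chain of the interferon gamma receptor, which read 57.1, 57.2 and 52.8 TPM in siControl against 68.5, 70.3 and 66.1 TPM in siHk2 (log2 fold change 0.29, adjusted p = 0.0149 in limma). Every siHk2 library lay above every control. Without siHk2 library 1, 2 or 3 the adjusted p in limma was 0.0532, 0.0628 and 0.0532, so the call needs all siHk2 libraries. With any 1 library left out, the log2 fold change of Ifngr2 ran from 0.25 to 0.31. Over all genes, calls fell from 1810 to 869, 714 and 504 without these siHk2 libraries. The kinase gene Jak1 (116 and 122 TPM, adjusted p = 0.275 in limma) and the corepressor gene Irf2bp2 (85.9 and 94.5 TPM, adjusted p = 0.0797) were the most abundant of this list.

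Of 44 tested further interferon-stimulated genes, 2 (4.55%) rose and 3 (6.82%) fell, neither above the 6.15% and 7.42% of all genes. The median over the list was 0.10 in log2 fold change, against 0.01 for all genes tested. Above 0 were 32 of the 44 (72.7%), and 54 of the 75 tested genes of all pathway lists (72.0%), against 51.2% of all genes tested. These shares were not tested. Slfn2, a Schlafen gene of lymphoid and myeloid cells, gave the largest change of these lists, from 21.7, 22.2 and 22.3 TPM in siControl to 39.3, 45.03 and 36.3 TPM in siHk2. Its groups were far apart (1.82 times higher, log2 fold change 0.83, SE 0.0816, adjusted p = 0.00229 in limma). Slfn9, of the same family, fell, from 48.8, 48.1 and 50.3 TPM to 38.9, 35.8 and 37.3 TPM (log2 fold change -0.39, adjusted p = 0.00619 in limma).

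Pml, the scaffold of PML nuclear bodies, fell from 88.1, 81.7 and 82.5 TPM to 66.5, 62.8 and 62.8 TPM (log2 fold change -0.39, adjusted p = 0.00539 in limma). No siHk2 library of Slfn9 or Pml reached the control range. Lgals3bp, a secreted galectin-binding protein gene, fell from 321 ± 13.3 to 282 ± 7.09 TPM (SD, n = 3, adjusted p = 0.0378 in limma), and Tor1aip1, of the nuclear envelope, rose from 31.96 ± 1.02 to 37.3 ± 1.01 TPM (adjusted p = 0.0378). Each call was lost in 7 of 14 alternative settings. Lgals3bp was lost when any library but siControl 6 was left out, with no filter and with no mean-variance trend, with adjusted p-values in limma up to 0.137 and log2 fold changes of -0.22 to -0.16 over all settings. Tor1aip1 was lost when any of the 6 libraries was left out and with no mean-variance trend, with adjusted p-values in limma up to 0.127 and log2 fold changes of 0.19 to 0.24. Ifitm3 (707 and 753 TPM, adjusted p = 0.406 in limma) and Ifitm2 (495 and 529 TPM, adjusted p = 0.245), which block viral entry at membranes, were the most abundant genes of this list.

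**Figure D5:**
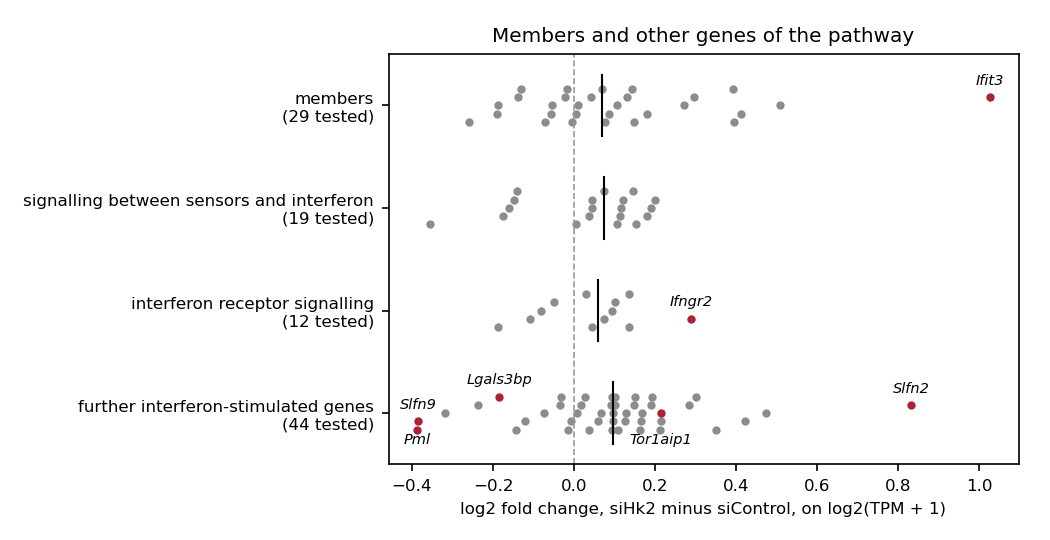
Log2 fold changes, siHk2 minus siControl on the log2(TPM + 1) scale, of the tested members and of the 3 pathway lists with tested genes; each point is a gene, red with its name where the adjusted p in limma was under 0.05, and black lines are medians. Medians run from 0.06 to 0.10, and Ifit3 at 1.03 and Slfn2 at 0.83 lie apart from the other genes.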

How the data were processed

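Gene expression was measured by RNA sequencing of poly(A)-selected RNA in 6 MEF libraries, per the labels' protocols. The values deposited by the authors are TPM, rounded to 2 decimals, on the build GRCm39 (mm39) per the submitters' processing notes; aligner, counting tool, annotation release and use of strand: not given in the sources used here. TPM keeps no depth, so no counting interval or detection floor was given. The control columns are numbered unlike any sample title and were taken as replicates of that group.

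The 13341 genes averaging 1 TPM or more were fitted with limma 3.58.1 (R 4.3.3) on the log2(TPM + 1) scale (empirical Bayes, mean-variance trend, no covariate, two-sided, Benjamini-Hochberg over all genes tested, threshold 0.05); the pseudocount understates changes of low genes. The fit was tested on simulated data. The members, lists and naming rule were chosen with earlier results of these data known. Members of at least 1 TPM are given by library or by range. Other pathway genes are given where they passed or are among the 3 most abundant of a list. Oas1b, Oas1c, Oas1g and the neighbours of Ifit3 were named after their values were seen. Promoter windows came from RefSeq (GRCm38.p6) and transcripts from GENCODE M21, matched by symbol or gene identifier, with Python 3.11.15, numpy 2.4.6 and pandas 2.3.3; figures used matplotlib 3.10.9.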

Additional observations from a re-analysis of the deposited data

How the results depend on the processing

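The rise of Ifit3 passed in the 13 alternative settings that tested it, with log2 fold changes from 0.95 to 1.25; with a minimum mean of 5 TPM it was not tested, which left 0 members called higher. Library weights gave 6 of the 29 members called higher and 1 lower (besides Ifit3, these were Irf1, Oas1a, Oas2, Oas3 and Ifi27, and Mavs). In that setting 4040 of the 13341 genes tested were called, against 1810 in the main fit. For the other pathway genes, a count added after seeing the data, library weights called 8 of the 75 tested higher and 7 lower. All genes called numbered 1186 with no filter and 1057 with no mean-variance trend, and 504 to 2126 without 1 library. Without 1 library, 1 to 2 members were called higher, 0 to 1 lower, and 1 to 3 other pathway genes higher. Of the 29 members, 11 changed sign in some setting, none of them called. Library weights gave -0.028 for Eif2ak2, -0.019 for Isg15, 0.13 for Ifi44 and 0.014 for Igtp, and quantile normalisation 0.0021 for Ifnar1 and -0.014 for Xaf1. Without 1 library the log2 fold change ran from -0.033 to 0.25 for Dhx58, -0.029 to 0.036 for Eif2ak2, -0.19 to 0.13 for Ifi44, -0.0034 to 0.22 for Ifih1, -0.073 to 0.10 for Ifit2, -0.059 to 0.048 for Ifnar1, -0.20 to 0.033 for Igtp, -0.039 to 0.24 for Isg15, -0.19 to 0.060 for Rtp4, -0.12 to 0.046 for Tlr3 and -0.069 to 0.22 for Xaf1. The cause of these shifts was not tested. No paired analysis was possible because the siControl columns carry none of the replicate numbers of the sample titles. With the depth unknown, values under 1 TPM limit what can be said of the 12 untested members.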
